A study of Drosophila melanogaster with 11 samples.

Results

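The genes white (w), scarlet (st) and brown (bw) encode the ABC transporter subunits that load eye pigment precursors in Drosophila melanogaster. They are 3 of the 16727 genes in the count table of an RNA-seq study of the fly antenna, and were chosen by gene symbol. The choice was made with earlier results of these data in view: w was picked for its difference between the genotypes, as a gene mutated in the control strain and widely used as a transgene marker, and st and bw as the partners of its protein. For all 3 genes, values of KO against wild type are therefore given as a description, without a test, and tests are kept to age. The choice did not use the age comparison, but the libraries behind the pick of w also enter its age tests.

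RNA came from the third antennal segment, the part of the antenna that bears the olfactory sensilla. Wild-type flies (WT; labelled w1118) and flies with a knockout of the microRNA gene mir-284 (KO; w1118;;mir-284 KO, outcrossed 7 times to w1118 per the labels) were taken 3 d or 25 d after eclosion. Both genotypes therefore share the w1118 label, and the labels do not say how the KO allele was made or whether it carries a marker transgene, nor do they give the sex of the flies. There were 3 libraries each of WT 3 d, WT 25 d and KO 3 d and 2 of KO 25 d, described as biological replicates.

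The 11 libraries held 24619699 to 55485825 counted read pairs. Counts of mir-284 were 0 in 11 of 11 libraries, wild type included, so in these poly(A)-selected libraries they check no label. One library, KO 25 d replicate 1, lay far from the rest: on the first principal component (37.7% of the variance) it scored 163, where the remaining libraries scored -47.6 to 13.3, and its median r with them was 0.896, where theirs were 0.939 to 0.964. Olfactory neuron markers (Orco, Ir25a, Ir8a, elav, nSyb and Syt1) summed to between 1916 and 5394 CPM (counts scaled to a common library size). WT 3 d replicate 3 had 1916, against 4525 and 4540 in its group. KO 3 d replicate 3 had 2991, against 4651 and 4704. Antennal support cell markers (lush, Obp19d, Obp28a, Obp83a and Snmp1) summed to between 26252 and 179960 CPM, the highest in KO 25 d replicate 1. Obp19d made 137250 CPM of that sum. There lush, Obp28a and Obp83a were also at their highest, but Snmp1 was at 843 CPM, against 1350 to 1739 in WT 25 d.

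White, Scarlet and Brown belong to the ABCG family of membrane transporters, and each protein must pair with another to work. White with Scarlet moves precursors of the brown ommochrome pigments into pigment granules, and White with Brown moves precursors of the red pteridine pigments. The genes are best known from the compound eye and from the Malpighian tubules, which store pigment precursors, and White has also been linked to amine levels in the nervous system. The w1118 allele is a null with a deletion in the gene, and shortened functional copies of w (mini-white) mark many fly transgenes. A count per gene cannot tell the chromosomal gene from such a copy.

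All 3 genes are protein coding and lie apart from each other in the genome (dm6). The gene w (FBgn0003996) lies on the minus strand of chromosome X, from 2790599 to 2796466, with 2352 exonic bases in 6 blocks. It sits within the span of kirre, a cell adhesion gene on the plus strand, with which it shares 0 exonic bases. The gene st (FBgn0003515) lies on the plus strand of 3L, from 16497651 to 16500460, with 2146 exonic bases in 7 blocks, within the span of CG43373 on the minus strand and again with 0 shared exonic bases. The gene bw (FBgn0000241) lies on the minus strand of 2R, from 23527805 to 23538499, with 2738 exonic bases in 9 blocks. Of these, 456 bases (16.7%) are also exonic in mi on the plus strand. Counting ignored strand and left out read pairs that fell on more than 1 gene, so counts of bw are uncertain there.

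The transcript of w was abundant in KO and scarce in WT. In WT 3 d it was at 2.26, 0.902 and 1.68 CPM in replicates 1 to 3, from 100, 35 and 62 counts. In WT 25 d it was at 1.68, 1.07 and 5.70 CPM, from 63, 42 and 155 counts. Every WT library thus held some w signal above the level of 3 counts, which was 0.0677 to 0.110 CPM over the libraries. In KO 3 d it was at 116.8, 107.3 and 153.2 CPM, from 4316, 3967 and 4433 counts. In KO 25 d it was at 43.3 and 32.0 CPM, from 1688 and 1136 counts. The genotypes did not overlap at either age, and the lowest KO library was 5.62 times the highest WT library. How many of all genes separate by group was not counted, here or for the genes below, so separation alone sets no gene apart.

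For w, WT averaged 1.61 ± 0.680 CPM (SD, n = 3) when young and 2.82 ± 2.52 (n = 3) when old. KO averaged 126 ± 24.2 (n = 3) when young and 37.7 ± 7.99 (n = 2) when old. The mean of KO was 77.9 times that of WT at 3 d and 13.4 times at 25 d. The fitted log2 fold change, KO against WT, was 6.28 (SE 0.63) at 3 d and 3.77 (SE 0.59) at 25 d. Without WT 25 d replicate 3, the WT library with the most w, the value at 25 d was 4.78, and over the alternatives and left-out libraries it ran from 3.36 to 4.78, against 5.99 to 6.60 at 3 d. Ordered by mean, WT 3 d and WT 25 d overlapped, while KO 25 d stood above both and KO 3 d above KO 25 d.

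**Figure D1:**
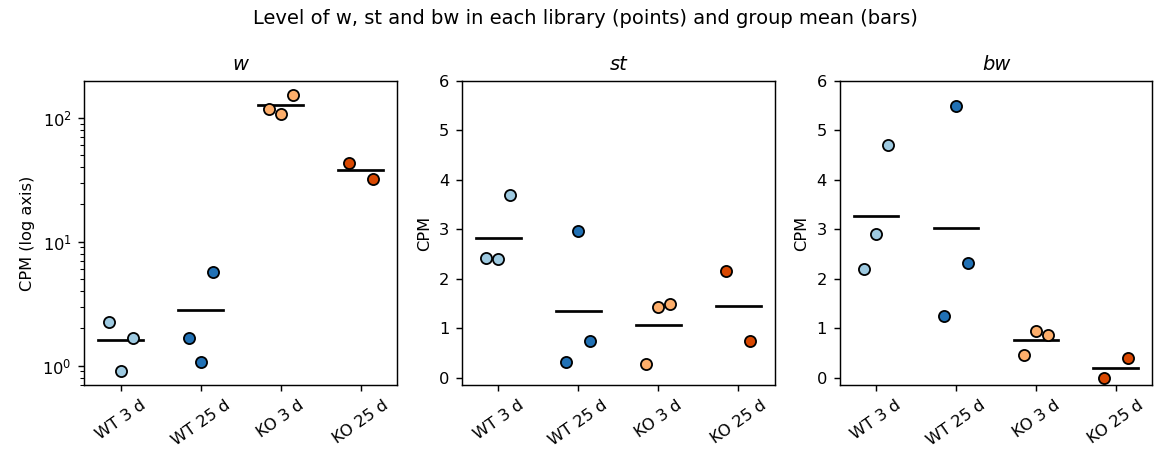
Level of w (log axis), st and bw in CPM in each library (points) with the group mean (bars), for WT and KO at 3 d and 25 d. For w the 5 KO libraries, at 32.0 to 153.2 CPM, lie above the 6 WT libraries, at 0.902 to 5.70 CPM.

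The transcript of st was scarce in every group and varied widely between replicates. WT 3 d libraries held 2.41, 2.397 and 3.69 CPM, and those of WT 25 d 0.320, 2.97 and 0.735 CPM. In KO 3 d it was at 0.271, 1.43 and 1.49 CPM, and in KO 25 d at 2.16 and 0.733 CPM. At 3 d the KO libraries lay below all WT libraries, and at 25 d the genotypes overlapped. Means were 2.84 ± 0.743 CPM (n = 3) in WT 3 d, 1.34 ± 1.43 (n = 3) in WT 25 d, 1.06 ± 0.687 (n = 3) in KO 3 d and 1.44 ± 1.01 (n = 2) in KO 25 d. The last 3 groups could not be put in order beyond their spread.

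Against WT, the mean of st in KO was 2.67 times lower at 3 d and 1.08 times higher at 25 d. The fitted log2 fold change was -1.41 (SE 0.88) at 3 d and 0.10 (SE 0.97) at 25 d. The first kept its sign in all alternatives run (-1.93 to -0.97). The second did not keep its sign: it was -0.36 without WT 25 d replicate 1, -0.19 without WT 25 d replicate 3 and -0.88 without KO 25 d replicate 1, and 1.45 without WT 25 d replicate 2.

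The transcript of bw was lower in KO than in WT libraries of the same age. WT 3 d libraries held 2.19, 2.91 and 4.70 CPM, and those of WT 25 d 1.25, 5.49 and 2.32 CPM. In KO 3 d it was at 0.460, 0.947 and 0.864 CPM, from 17, 35 and 25 counts. In KO 25 d it had 0 counts in replicate 1, which allows up to 0.0770 CPM, and 0.395 CPM from 14 counts in replicate 2. Every KO library lay below every WT library, the opposite order to that of w, with few counts in KO.

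Means of bw were 3.27 ± 1.29 CPM (n = 3) in WT 3 d, 3.02 ± 2.20 (n = 3) in WT 25 d, 0.757 ± 0.261 (n = 3) in KO 3 d and 0.197 ± 0.279 (n = 2) in KO 25 d. The WT mean was 4.32 times the KO mean at 3 d and 15.3 times at 25 d. The fitted log2 fold change, KO against WT, was -2.11 (SE 0.96) at 3 d and -3.93 (SE 1.26) at 25 d. The value at 25 d rests on a library at 0: it was -2.93 without KO 25 d replicate 1 and -9.79 without replicate 2, and 1 further left-out library, WT 25 d replicate 2, moved it over 1.5-fold, to -3.17. WT 3 d and WT 25 d overlapped, and both KO groups lay below them.

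The exonic overlap of bw with mi touches these values. The gene mi was at 18.2 ± 2.86 CPM (n = 3) in WT 3 d, 20.6 ± 1.20 (n = 3) in WT 25 d, 17.03 ± 2.28 (n = 3) in KO 3 d and 15.6 ± 5.50 (n = 2) in KO 25 d. In the edgeR quasi-likelihood test its log2 fold change, KO against WT, was -0.09 at 3 d (adjusted p = 0.936) and -0.40 at 25 d (adjusted p = 0.343).

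Between genes, levels were compared per exonic length, as CPM per kilobase of exons (RPKM). The order was st, bw, w in WT 3 d, with means of 1.32, 1.19 and 0.686 RPKM and overlap between neighbours in that order. In KO 3 d w was at 53.5 RPKM, against 0.496 for st and 0.276 for bw. In KO 25 d w was at 16.02 RPKM, st at 0.673 and bw at 0.0721. WT 25 d had w at 1.20, bw at 1.10 and st at 0.626 RPKM. Among the 11867 genes with enough counts to be tested, all 3 members included, w stood above 17.4% in WT 3 d, 23.2% in WT 25 d, 87.7% in KO 3 d and 63.5% in KO 25 d. The partners stayed low in every group, st above 16.1% to 22.9% of genes and bw above 6.43% to 22.5%.

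Age was tested in each genotype, 25 d against 3 d, with edgeR's quasi-likelihood test over all 11867 genes. In WT, 0.152% of genes were called at an adjusted p under 0.05 (18 genes, and 958 at an unadjusted p under 0.05), and none of w, st and bw was. The log2 fold change of w was 0.77 (SE 0.55, adjusted p = 0.823), that of st -1.07 (SE 0.88, adjusted p = 0.860) and that of bw -0.11 (SE 0.92, adjusted p = 0.996), and all 3 genes had overlapping ages. For w the sign rested on WT 25 d replicate 3, without which the value was -0.24. For bw it was 0.25 without WT 3 d replicate 3, 0.26 without WT 25 d replicate 1 and 0.05 without WT 25 d replicate 3.

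In KO, 0.0421% of genes were called for age (5 genes, and 1404 at an unadjusted p under 0.05), none of them a member, and DESeq2 and limma voom called none of the 3 members for age either. Mean w was 3.34 times higher at 3 d than at 25 d, and all 3 young libraries exceeded both old ones. With so few libraries such an order is easily met, and its share over all genes was not counted. The age test of w in KO is not independent of the choice of w, since the same KO libraries enter both. The log2 fold change of w was -1.74 (SE 0.59), with an unadjusted p of 0.0142 in the edgeR test and an adjusted p of 0.357, so it missed the threshold. It kept its sign in all 21 alternatives run, from -1.96 to -1.45, with adjusted p from 0.0635 to 0.765. For bw, mean levels were 3.84 times higher at 3 d and the ages did not overlap, but the log2 fold change of -1.93 (SE 1.16) missed the threshold as well (adjusted p = 0.512). Without KO 25 d replicate 2, which leaves only the library at 0 in its group, bw was called at -7.80 (adjusted p = 0.00805). For st the value was 0.44 (SE 0.97, adjusted p = 0.861). It was -0.01 without KO 3 d replicate 1 and -0.52 without KO 25 d replicate 1. Over the 21 alternatives run it ranged from -0.52 to 3.23.

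The difference of the age changes, KO minus WT, was called for 0.0253% of genes (3 genes, and 726 at an unadjusted p under 0.05) and for none of the members. For w it was -2.51 on the log2 scale (SE 0.80) with an unadjusted p of 0.0100 in edgeR and an adjusted p of 0.790, and it was -1.50 without WT 25 d replicate 3. That p-value is not independent of the choice of w, which was picked for its KO against WT difference. For st the difference of age changes was 1.52 (SE 1.30, adjusted p = 0.822) and for bw -1.82 (SE 1.46, adjusted p = 0.815). Over the alternatives run, the difference for st ranged from 0.54 to 4.06. For bw it was called without KO 25 d replicate 2, at -7.69 (adjusted p = 0.0164), again with only the library at 0 left in its group.

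**Figure D2:**
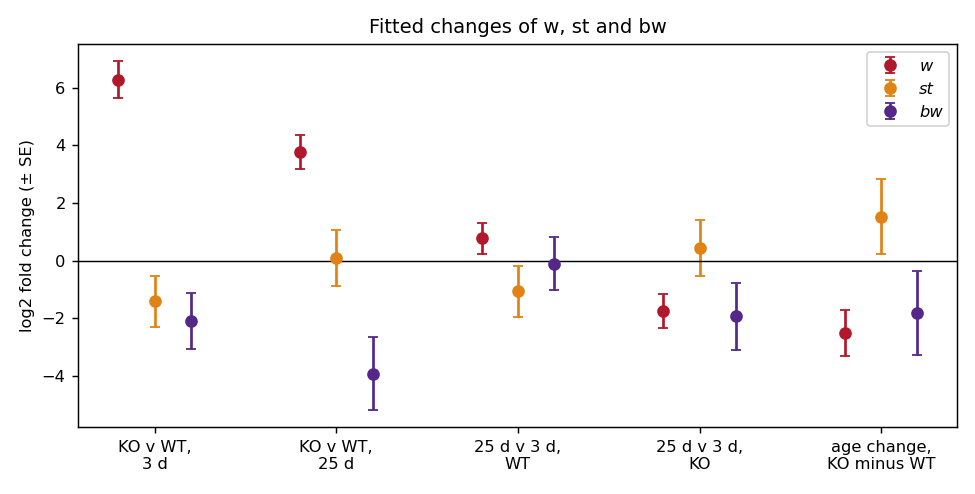
Fitted log2 fold changes (points) with standard errors (bars) of w, st and bw for the comparisons of age and of genotype. Values of w for KO against WT, 6.28 at 3 d and 3.77 at 25 d, are the highest plotted, and those of bw are -2.11 and -3.93.

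RNA of photoreceptor marker genes was present in these antennal samples, in amounts that differed between libraries. Whether it came from eye tissue or from cells of the antenna was not tested. The 14 markers, among them the rhodopsin gene ninaE and the channel gene trp, summed in WT to 3986, 3365 and 9641 CPM at 3 d and to 1420, 7302 and 4684 CPM at 25 d. They summed to 2401, 9263 and 6580 CPM in KO 3 d and to 2005 and 888 CPM in KO 25 d. The KO 25 d sums were thus below every KO 3 d sum, but not each marker was. Rh3, Rh4, Rh6 and Arr2 were higher in KO 25 d replicate 1 than in KO 3 d replicate 1, and the other detected markers were lower. Of the markers, ninaA was at 0 in all libraries and overlaps CG15824 on the other strand, so its counts are uncertain. Of the 13 tested markers, 0 were called in any comparison. Their median log2 fold change was -2.39 for age in KO, 0.11 for KO against WT at 3 d and -1.30 at 25 d. In bulk tissue, fewer cells of a type and less RNA per cell cannot be told apart.

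Within groups, the span of w from the lowest to the highest library was 2.50-fold in WT 3 d, 5.34-fold in WT 25 d, 1.43-fold in KO 3 d and 1.35-fold in KO 25 d. Photoreceptor markers spanned 2.87-fold, 5.14-fold, 3.86-fold and 2.26-fold in the same groups. The library with the most w was not the one with the most marker RNA in WT 3 d, WT 25 d or KO 3 d, and was the same one, replicate 1, in KO 25 d. For bw it was the same library in WT 3 d (replicate 3), WT 25 d (replicate 2) and KO 3 d (replicate 2), where in WT 25 d and KO 3 d all 3 libraries had the same order for both, and the other one in KO 25 d. For st it was the same library in WT 3 d (replicate 3), WT 25 d (replicate 2) and KO 25 d (replicate 1), but not in KO 3 d, and in WT 25 d all 3 libraries again had the same order. The part of the cells behind the photoreceptor marker RNA in these levels was not tested beyond the covariate fit that follows. A fit chosen after seeing the data took the marker level, as the mean log2 CPM of the 13 tested markers, as a covariate. In it the log2 fold change of w, KO against WT, was 6.26 at 3 d and 3.95 at 25 d, and that of bw -2.18 and -2.97. For st it was -1.93 at 3 d and 2.13 at 25 d, the latter moved from 0.10.

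**Figure D3:**
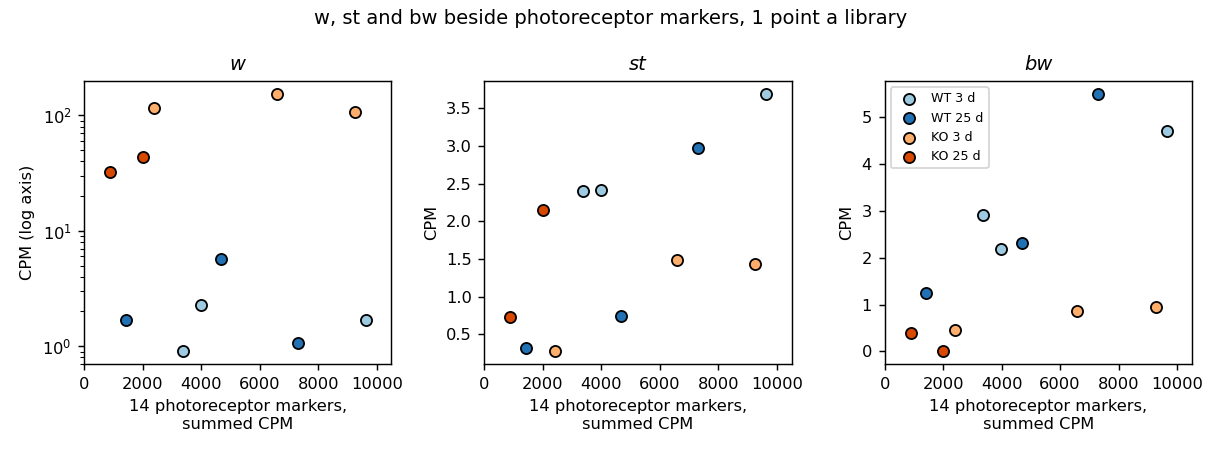
Level of w (log axis), st and bw in CPM against the summed CPM of 14 photoreceptor markers, 1 point for each library, by group. For w the KO libraries, at marker sums of 888 to 9263 CPM, lie above the WT libraries, at marker sums of 1420 to 9641 CPM.

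Other cell types were measured in the same way. Genes listed as eye pigment cell markers (Pdh, santa-maria, Culd and rdhB) summed in WT to 208, 204 and 501 CPM at 3 d and to 96.9, 227 and 153 CPM at 25 d. In KO they summed to 155, 227 and 213 CPM at 3 d and to 75.5 and 82.9 CPM at 25 d. None of the 4 was called in any comparison, and the sums overlapped between genotypes at 3 d but not at 25 d. In KO 25 d replicate 2, santa-maria made 64.8 CPM of the sum and Pdh 7.44 CPM. Whether the 4 genes mark pigment cells in these samples was not tested, so the sums are not a measure of such cells. Of the Malpighian tubule markers, Uro was at 0 in 7 of 11 libraries and at most 1.03 CPM, salt reached at most 1.92 CPM and CapaR at most 0.930 CPM, while Oatp58Dc, an organic anion transporter gene, was at 6.51 to 20.98 CPM and Irk2, a potassium channel gene, at 83.4 to 167 CPM. Glia markers summed to 2219 to 3075 CPM in WT 3 d, 2562 to 2763 in WT 25 d, 2212 to 2906 in KO 3 d, and 1629 and 2080 in KO 25 d, and 0 of 5 were called in any comparison.

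Hemocyte markers (Hml, NimC1, eater, srp and Pxn) summed to 141 to 259 CPM in WT 3 d, 114.99 to 249.9 in WT 25 d, 137 to 209.6 in KO 3 d, and 170.2 and 178 in KO 25 d, so the genotypes overlapped. The list as a whole leaned lower in KO, with a median log2 fold change, KO against WT, of -0.33 at 3 d and -1.16 at 25 d. Of the 5, 1 was called, and in the other direction: NimC1, which encodes a phagocytosis receptor and is named after its values were seen. Over all genes, KO against WT called 1.39% at 3 d and 1.74% at 25 d. In WT NimC1 was at 6.05, 4.61 and 5.92 CPM at 3 d and at 5.04, 3.51 and 2.21 CPM at 25 d. In KO it was at 39.8, 54.9 and 26.2 CPM at 3 d and at 106.3 and 54.95 CPM at 25 d. Its log2 fold change by edgeR, KO against WT, was 2.87 (SE 0.38, adjusted p = 0.00398) in young flies and 4.48 (SE 0.42, adjusted p = 0.00116) in old flies.

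Male and fat body markers also differed between libraries. The male markers roX1, roX2 and msl-2, of the complex that raises X-linked transcription in males, summed to 2506 to 3870 CPM in WT 3 d, 2043 to 3272 in WT 25 d, 789 to 1277 in KO 3 d, and 1321 and 2763 in KO 25 d. The genotypes did not overlap at 3 d and overlapped at 25 d. At 3 d 1 of the 3, roX1, was called lower in KO (edgeR adjusted p = 0.0476), where 1.39% of all genes were called. The gene roX1 overlaps ec on the other strand, so its counts are uncertain. The fat body markers were the yolk protein genes Yp1, Yp2 and Yp3, with Fbp1 and Lsp2. Their sums were 16.1 to 5150 CPM in WT 3 d and 128 to 1431 in WT 25 d. In KO the sums were 2067 to 8511 CPM at 3 d, and 815 and 1438 CPM at 25 d. Whether these sums follow fat body cells or the sex of the flies was not tested. The part of these cell types and of the sex of the flies in the levels of w, st and bw was not tested.

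None of the tested genes around w was called in KO against WT. Its host gene kirre was at 133 ± 5.06 CPM (n = 3) in WT 3 d, 96.6 ± 7.71 (n = 3) in WT 25 d, 140 ± 13.4 (n = 3) in KO 3 d and 157 ± 63.7 (n = 2) in KO 25 d. Its log2 fold change, KO against WT, was 0.08 at 3 d (edgeR adjusted p = 0.945) and 0.70 at 25 d (SE 0.21, adjusted p = 0.132). CG32795, on the same strand as w and 32 bases away, gave 0.28 (SE 0.14, adjusted p = 0.529) when young and 0.27 (SE 0.16, adjusted p = 0.341) when old. Of the 3 nearest tested genes on each side, 0 of 6 were called at either age. They ran from -0.24 to 1.11 at 3 d and from -0.47 to 1.62 at 25 d. The highest at 25 d was the syntaxin gene Syx4 (SE 0.38, adjusted p = 0.0629), and the others were crm, CG14416, CG14419 and CG3588.

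Around st and bw the nearest genes were not called either. For st they were CG33158, CG42514, aos, which encodes an inhibitor of the EGF receptor, CG13033, CG4229 and Mipp1. CG13033 had the highest log2 fold changes, KO against WT, at 1.99 in young flies (adjusted p = 0.415) and 3.55 in old flies (SE 0.95, adjusted p = 0.0966). The host gene CG43373 gave -0.49 (adjusted p = 0.656) and -0.43 (adjusted p = 0.481). For bw they were RabX1, CG3906, CG13559, ppk3, CG30185 and wmd, from -2.89 to 1.91 at 3 d (lowest adjusted p 0.342) and from -3.84 to 0.78 at 25 d (lowest adjusted p 0.132).

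**Figure D4:**
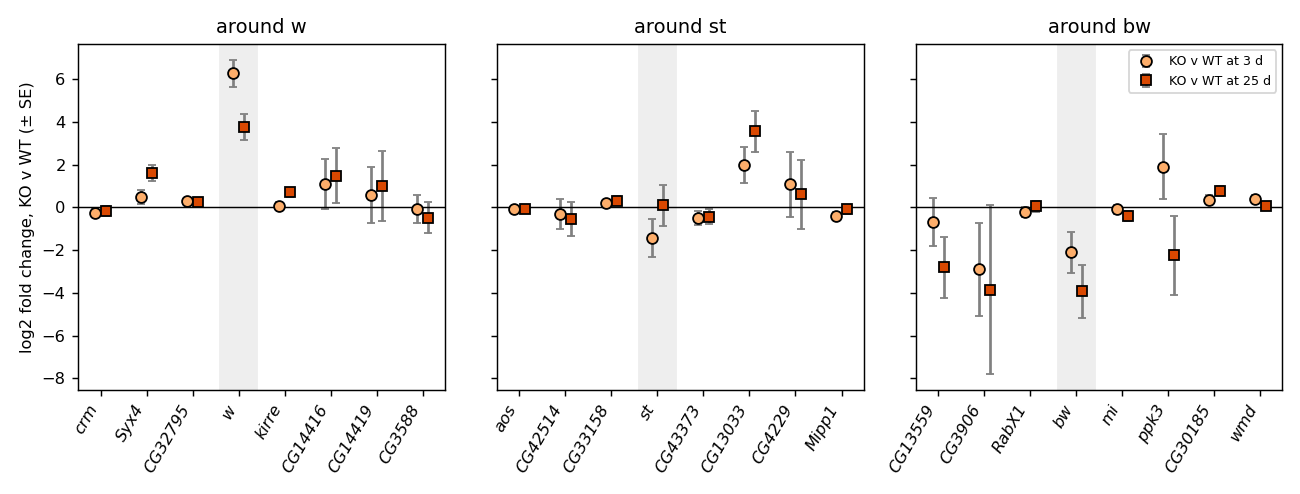
Fitted log2 fold changes, KO against WT, with standard errors, of w, st and bw (shaded) and of nearby genes, at 3 d and 25 d. Beside w at 6.28 and 3.77, its neighbours run from -0.47 to 1.62.

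Genes of the pigment pathways, chosen as lists with earlier results known, were then counted. KO against WT called 1.39% of all genes at 3 d (165 genes) and 1.74% at 25 d (206 genes). These counts depend on single libraries and ranged from 64 to 592 and from 68 to 5090 when 1 was left out, the highest of each without KO 25 d replicate 2. In ommochrome synthesis, 0 of 4 tested genes of 5 were called in any of the 5 comparisons, with a median log2 fold change, KO against WT, of 0.15 at 3 d and -0.13 at 25 d, against -0.01 and -0.04 over all genes. The untested gene is cn, which was near 0 and overlaps CR45108 on the other strand, so its counts are uncertain. In pteridine synthesis 0 of 11 were called in any comparison (medians 0.13 and 0.05), and in pigment granule trafficking 0 of 17 (medians 0.10 and -0.11). Without KO 25 d replicate 2 these counts of 0 did not hold where KO 25 d enters: KO against WT at 25 d then called 2 ommochrome, 4 pteridine and 9 trafficking genes, age in KO called 1, 2 and 9, and the difference of age changes 1, 3 and 4. DESeq2 called 1 pteridine gene at 3 d and 1 gene of each of the 3 lists at 25 d in KO against WT. At an unadjusted p under 0.05 in edgeR there were 1 ommochrome, 3 pteridine and 1 trafficking gene at 3 d and 1, 3 and 2 at 25 d. Over all 11867 tested genes there were 1304 at 3 d and 2450 at 25 d, so these counts are not read as a change of the lists.

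The best expressed members of these lists gave the following. Group means below are given for WT 3 d and WT 25 d first, then for KO 3 d and KO 25 d. The transporter-like gene kar was at 36.5, 26.8, 49.1 and 32.8 CPM, with log2 fold changes, KO against WT, of 0.43 at 3 d (adjusted p = 0.735) and 0.29 at 25 d (adjusted p = 0.639). KFase, the kynurenine formamidase gene, was at 12.6, 10.3, 27.3 and 28.4 CPM, with 1.11 (adjusted p = 0.302) and 1.46 (adjusted p = 0.129). It overlaps DLP on the other strand, so its counts are uncertain.

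Pu encodes GTP cyclohydrolase, the first enzyme of pteridine synthesis, and was at 142, 97.4, 143 and 152 CPM. Its log2 fold changes were 0.01 (adjusted p = 0.998) and 0.64 (adjusted p = 0.225). Hn, the phenylalanine hydroxylase gene, was at 115.5, 88.7, 141 and 106 CPM. Its 3 d means rest on replicate 3 of each genotype, at 224.7 CPM in WT and 266.7 in KO, against 65.7 and 56.1 CPM in the other WT libraries and 82.3 and 74.7 CPM in the other KO libraries. For trafficking, lt, a subunit of the HOPS complex that delivers cargo to lysosomes and pigment granules, was at 90.2, 116, 104 and 114.5 CPM, with log2 fold changes of 0.20 (adjusted p = 0.600) and -0.02 (adjusted p = 0.952). The gene ca, needed for pigment granule formation, was at 118, 116, 95.6 and 71.8 CPM and overlaps Vps16B and ncd on the other strand. None of these passed the test at either age.

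The pteridine gene closest to the threshold was ry, the xanthine dehydrogenase gene, named here after its values were seen. In WT it was at 18.9, 20.3 and 39.4 CPM at 3 d and at 22.7, 23.4 and 19.2 CPM at 25 d. In KO it was at 6.33, 5.06 and 8.23 CPM at 3 d and at 1.51 and 6.68 CPM at 25 d. Every KO library lay below every WT library. At 3 d its log2 fold change was -2.003 (SE 0.47, edgeR adjusted p = 0.0801), and at 25 d it was -2.41 (SE 0.56, adjusted p = 0.0625). It passed the threshold in 5 of 21 alternatives at 3 d: DESeq2 (adjusted p = 0.0011), limma voom (0.0455), the groups compared alone (0.0467), and without KO 25 d replicate 1 (0.00653) or 2 (0.00699). At 25 d it passed in 3 of 21: DESeq2 (0.00041), and after leaving out replicate 3 of WT 3 d (0.0495) or replicate 2 of KO 25 d (0.000684). Adjusted p-values over these alternatives reached 0.304 at 3 d and 0.281 at 25 d, and the sign held in all of them. Its log2 fold change was -3.85 at 25 d without KO 25 d replicate 2 and -1.71 without replicate 1.

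Among 12 other ABCG transporter genes, the relatives of w, st and bw, edgeR called 1 in KO against WT at 25 d, where 1.74% of all genes were called. In the other 4 comparisons 0 of the 12 were called. At an unadjusted p under 0.05 in edgeR, age in WT had 1 of the 12 (958 of all genes) and age in KO 2 (1404). The difference of age changes had 1 (726) and KO against WT at 3 d 1 (1304). These counts are not read as a change of the list. Of the 12, DESeq2 called 2 at 25 d and 0 elsewhere. Without KO 25 d replicate 2, edgeR called 8 at 25 d, 6 for age in KO and 7 for the difference, and without WT 3 d replicate 3 it called 2 at 25 d. The gene called by edgeR, CG31121, was at 7.77, 8.97 and 8.57 CPM in WT 25 d and at 23.1 and 15.03 CPM in KO 25 d. Its log2 fold change was 1.18 at 25 d (SE 0.23, edgeR adjusted p = 0.0324) and 0.51 at 3 d (adjusted p = 0.387). It overlaps CG11089 on the other strand, so its counts are uncertain. The call ended with limma voom (adjusted p = 0.0528), in a fit of the groups compared alone (0.224), and without WT 3 d replicate 1 or 2 (0.0564 and 0.0541), any WT 25 d replicate (0.131, 0.120 and 0.123), KO 3 d replicate 1 or 2 (0.0650 and 0.0593) or KO 25 d replicate 1 (0.145).

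Amines were included because of the reported link of White to them. Among 12 genes of biogenic amine synthesis and transport, edgeR called 1 at each age in KO against WT, in both cases b. Over all genes, 1.39% were called at 3 d and 1.74% at 25 d. In the other 3 comparisons 0 of the 12 were called. At an unadjusted p under 0.05 in edgeR, age in WT had 0 of the 12 (958 of all genes). Age in KO had 2 (1404) and the difference 2 (726). These counts are not read as a change of the list. Of the 12, DESeq2 called 2 at 3 d, 4 at 25 d and 2 for age in KO. Without KO 25 d replicate 2, edgeR called 2 at 3 d, 5 at 25 d, 4 for age in KO and 3 for the difference, and without replicate 1 of that group it called 2 at 3 d. The gene b encodes aspartate decarboxylase, which makes the beta-alanine that is joined to dopamine and histamine. In WT it was at 32.6, 28.4 and 39.6 CPM at 3 d and at 27.9, 26.3 and 22.6 CPM at 25 d. In KO it was at 8.93, 6.20 and 12.5 CPM at 3 d and at 4.47 and 9.84 CPM at 25 d. All KO libraries lay below all WT libraries.

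At 3 d the log2 fold change of b was -1.87 (SE 0.32, edgeR adjusted p = 0.0178), and at 25 d it was -1.84 (SE 0.37, adjusted p = 0.0355). The call at 3 d ended without WT 3 d replicate 1 or 3 (adjusted p = 0.0698 and 0.0502) or KO 3 d replicate 1 or 2 (0.0972 and 0.0840). The call at 25 d ended in a fit of the groups compared alone (0.191), with the photoreceptor covariate (0.0537), and without WT 3 d replicate 1 or 2 (0.0706 and 0.0617), any WT 25 d replicate (0.114, 0.125 and 0.0977), KO 3 d replicate 1 (0.0650) or KO 25 d replicate 1 (0.132). Median log2 fold changes of the amine list were -0.19 at 3 d and -1.13 at 25 d, and of the ABCG list -0.01 and -0.35.

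**Figure D5:**
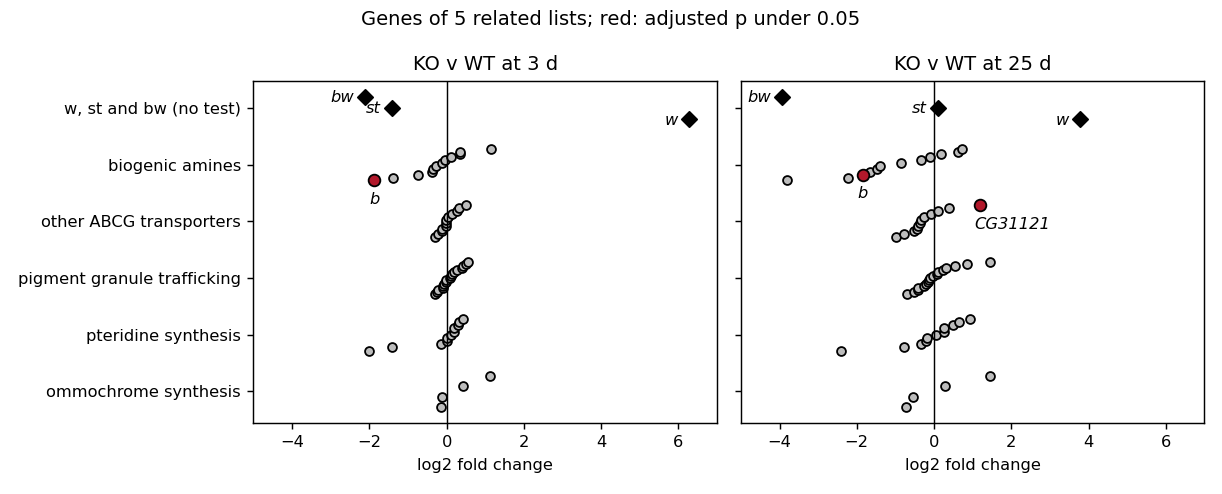
Fitted log2 fold changes, KO against WT, of the tested genes of 5 related lists at 3 d and 25 d, with w, st and bw (black diamonds, no test) on a row of their own. Red points passed an adjusted p under 0.05: b at both ages, at -1.87 and -1.84, and CG31121 at 25 d, at 1.18.

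The genes whose log2 CPM over the 11 libraries was most like that of each member were found by Pearson's r, as a description over libraries that share the 4 groups. For w they were CG9287 (r = 0.968), the peroxidase gene Pxd (0.963), the glutathione transferase gene GstD10 (0.962), CG15087 (0.959) and Unc-115b (0.957). CG9287 averaged 0.0451 CPM in WT 3 d, 10.5 in KO 3 d and 2.66 in KO 25 d and had 0 counts in WT 25 d, the same order of genotypes and of KO ages as w. For bw they were the spectrin gene kst (0.964), CG16965 (0.958), CG9782 (0.958), Gp150 (0.956) and RIC-3 (0.952). CG16965 was at 3.97, 3.37, 1.11 and 0.240 CPM in the 4 groups in the order above.

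Likeness was weaker for st, led by the relaxin-like peptide gene Ilp8 (r = 0.887), CG14636 (0.822), CG2121 (0.819), CG33993 (0.819) and the eye development gene eya (0.793). Between the members themselves r was -0.36 for w and st, -0.68 for w and bw, and 0.30 for st and bw, so neither partner had a positive r with w over these libraries.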

How the data were processed

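The authors deposited raw counts of read pairs per gene, made with featureCounts 1.4.5-p1 on dm6 with strand ignored (setting 0) and no option for reads on several genes, per the file headers. The library kit marks strand, per the labels' protocols. STAR 2.4.2a and FastQC are named in the submitters' processing notes. The table has 12 library columns. Of these, 11 were assigned by the genotype, age and number in their names, and 1, a further KO 25 d column, was not used. KO 25 d values rest on that match.

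Counts were analysed with edgeR 4.0.16 (R 4.3.3). Genes were filtered by group (filterByExpr, 11867 of 16727 kept, all 3 members among them), scaled by TMM and tested with the robust quasi-likelihood test in a model of 4 group means fitted to the 11 libraries, with a common coefficient of variation of 0.431. The threshold for a call was a p below 0.05 after Benjamini-Hochberg adjustment, and adjusted p-values are from this test unless another tool is named. Limits from 3 counts cover counting error only. Positions are from the Ensembl annotation of dm6. Log2 CPM for correlations used a prior count of 2. The script was tested on simulated data.

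The members and lists (58 pathway genes in 5 lists, 56 of them tested) were chosen with earlier results of these data known. Named were the members; up to 4 called genes per list and comparison, or the 2 best expressed where none was called; the 3 nearest tested genes per side; and the 5 most alike genes. Alternatives were upper-quartile or RLE scaling, limma 3.58.1 voom, DESeq2 1.42.0, no filter and a stricter one (10 counts in every library of a group), a replicate block, fits of the groups compared alone, and leaving out each library. A photoreceptor covariate, and leaving out both 3 d libraries numbered 3, were added after seeing the data. Sequences were not used here.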

Additional observations from a re-analysis of the deposited data

How the results depend on the processing

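Over the alternatives run, w in KO against WT stayed at 5.99 to 6.60 (log2) at 3 d and 3.36 to 4.78 at 25 d, and bw and st at 3 d kept their sign. Counts of called genes did not hold. DESeq2 called 293 genes for age in WT, 282 for age in KO, 43 for the difference of age changes, 564 for KO against WT at 3 d and 1078 at 25 d. Fits of the groups compared alone called 121 for age in WT, 0 for age in KO by edgeR (474 at an unadjusted p under 0.05) and 20 for KO against WT at 25 d. The photoreceptor covariate gave 2 for age in KO, 0 for the difference by edgeR (1154 unadjusted), bw 0.029 for age in WT and st 2.13 for KO against WT at 25 d. Without both 3 d libraries numbered 3 there were 42, 3 and 0 calls (604 unadjusted) for age in WT, age in KO and the difference, and bw was 0.25 for age in WT. The cause was not tested.

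Leaving out 1 library gave 2 to 184 calls for age in WT (184 without KO 25 d replicate 2, 181 without replicate 1), 1 to 4084 for age in KO, 0 to 2987 for the difference, 64 to 592 for KO against WT at 3 d and 68 to 5090 at 25 d. The counts of 4084, 2987 and 5090 are those without KO 25 d replicate 2, where the library that stands apart is alone in its group, assumed to vary like the other groups. Without replicate 1 of that group they were 2, 6 and 130. The pathway lists reached up to 9 called genes (granule trafficking) without KO 25 d replicate 2. Values ranged from -0.24 to 1.17 for w, age in WT, -0.87 to 0.26 for bw, age in WT, -0.52 to 1.02 for st, age in KO, -7.80 to -0.92 for bw, age in KO, -7.69 to -0.82 for bw, the difference, -0.88 to 1.45 for st, KO against WT at 25 d, and -9.79 to -2.93 for bw there.

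Same-numbered libraries were not treated as pairs, since not every correlation of their deviations was over 0.1: r was 0.41, 0.025 and 0.46 for numbers 1 to 3 between WT 3 d and KO 3 d, so 2 of 3 numbers deviated together there, and -0.073 to 0.061 between the other groups. With the replicate number as a block, 12, 2, 2, 117 and 145 genes were called, against 18, 5, 3, 165 and 206, and w was 6.32 and 4.29 for KO against WT. The block changed no call of a member and ended the calls at 25 d of b (adjusted p = 0.0862) and CG31121 (0.0724). Levels of st and of bw in KO rest on few counts, which limits what these libraries can show.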
